A study of Homo sapiens with 18 samples.

Results

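The 6 CDK inhibitor genes CDKN1A (p21), CDKN1B (p27), CDKN1C (p57), CDKN2C (p18), CDKN2D (p19) and CDKN3 (KAP) were taken by symbol from a table of 37096 named genes and described across 6 groups of HEK293T cells. All 6 were in the table, and 5 of them passed the filter on low values, a mean log2 value at least 0.5 above the lowest in the table. CDKN1C did not, with 18 reads in the 18 libraries together.

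Poly-A RNA was sequenced from HEK293T cells, a human embryonic kidney line grown in high-glucose medium with serum. Cells were transfected with the empty pLEX vector or with MethionaseNLS, a methionine-cleaving enzyme carrying a nuclear localisation signal. Vps34-IN1 inhibits VPS34, the class 3 PI3K. The 6 groups, of 3 libraries each, were methionase with 5 µM Vps34-IN1 for 12 h at 24 h of transfection, empty vector with Vps34-IN1 at the same dose and times, methionase with the vehicle DMSO at 24 h, empty vector with DMSO at 24 h, methionase with DMSO at 12 h, and empty vector with DMSO at 12 h. All groups were labelled wild type, and all carried a plasmid and received either drug or DMSO. An inactive enzyme is in none of the labels, so the activity of methionase and the presence of a foreign nuclear protein cannot be told apart. The labels give no duration for DMSO, do not say that replicates came from separate cultures, and give 1 batch for all libraries. The p-values therefore measure only how far these samples differ among themselves, which may be technical spread.

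Entry into S phase is driven by cyclin-dependent kinases (CDKs), which phosphorylate the retinoblastoma protein RB and so release E2F transcription factors. The Cip/Kip proteins p21, p27 and p57 bind complexes of cyclins with CDK2 and other CDKs. The INK4 proteins p18 and p19 bind the kinases CDK4 and CDK6 themselves. KAP, encoded by CDKN3, is a phosphatase that removes the activating phosphate of CDK2. The p21 and p27 proteins are also set by ubiquitin ligases, which mRNA levels do not show. HEK293T cells carry adenoviral E1A and E1B and the SV40 large T antigen, viral proteins among which T antigen and E1A bind the RB family.

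Total reads per library ranged from 18278586 to 20825232. All 9 genes listed as marks of this line were detected in every library, among them NEFM at 5935 to 17600 normalised reads (reads divided by the size factor of the library) and PAX2 at 99.1 to 190.3. LHX1, also of the 9, was low, at 2.13 to 14.9 normalised reads. Of the 7 markers of other cell types with values, CD3E, CDH5 and AQP2 stayed at or below 1.12 normalised reads, PECAM1 at or below 4.06 and ALB at or below 20.3. COL1A1 had 403 to 672 and COL3A1 24.1 to 44.7 normalised reads, and neither passed the test in any of the 10 comparisons. The share of reads on the mitochondrial ribosomal RNAs moved with the groups. It was 2.18% ± 0.288 with methionase and Vps34-IN1, 1.2% ± 0.193 with the vector and Vps34-IN1, 1.49% ± 0.536 with methionase in DMSO and 0.548% ± 0.0956 with the vector in DMSO at 24 h (SD, n = 3 each). At 12 h it was 0.355% ± 0.0295 with methionase and 0.240% ± 0.0453 with the vector. Its part in the results that follow was not tested.

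In the RefSeq annotation of GRCh38.p14, CDKN1A occupies chr6:36676463-36687332 and CDKN1B chr12:12717368-12722369, both on the plus strand. CDKN1C occupies chr11:2883218-2885775 on the minus strand. The INK4 genes occupy chr1:50960745-50974634 on the plus strand (CDKN2C) and chr19:10566460-10568979 on the minus strand (CDKN2D), and CDKN3 occupies chr14:54397007-54420218 on the plus strand. The deposited table holds 1 value per gene, so the transcripts of a gene are not separated. DINOL, a long non-coding RNA on the opposite strand, overlaps CDKN1A and averaged 8.37 normalised reads. The strand setting of the counting is not known, and reads of this pair may not have been told apart.

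RefSeq promoter windows of GRCh38.p14, the 250 bases before a start site, were found for 5 of the 6 genes, with 7 start sites. They were searched on both strands for the CHR (TTTGAA), the CCAAT box (CCAAT), the GC box (GGGCGG), the CRE (TGACGTCA), the AP-1 motif (TGAGTCA), the E-box (CACGTG) and the E2F motif (TTTGGCGC, TTTCCCGC, TTTGCCGC or TTTCGCGC). The upstream ends of 3 windows are shown, for the 2 tested genes with the widest range between group means and for CDKN3, whose window holds a cell-cycle element. Each stops before the first exon of that gene, by GENCODE v29, that reaches into the window. They are 194 bases at chr6:36678464-36678657 on the plus strand, 170 bases at chr19:10569060-10569229 on the minus strand and 92 bases at chr14:54396757-54396848 on the plus strand, printed 5′ to 3′ on the strand of the gene with the matches in capitals.
CDKN1A: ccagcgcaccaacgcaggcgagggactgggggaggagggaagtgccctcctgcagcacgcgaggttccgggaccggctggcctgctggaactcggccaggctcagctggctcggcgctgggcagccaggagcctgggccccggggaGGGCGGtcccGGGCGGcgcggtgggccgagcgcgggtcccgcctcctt
CDKN2D: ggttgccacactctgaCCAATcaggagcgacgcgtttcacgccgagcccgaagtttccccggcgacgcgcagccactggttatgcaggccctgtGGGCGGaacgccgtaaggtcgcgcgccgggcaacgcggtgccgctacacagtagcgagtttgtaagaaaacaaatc
CDKN3: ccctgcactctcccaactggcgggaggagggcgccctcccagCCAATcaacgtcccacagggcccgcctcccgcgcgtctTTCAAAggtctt

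The CDKN1A window lies inside the span of the gene given above, before a later start site. In this window 96 bases are in an exon of DINOL. In CDKN1A the capitals mark 2 GC boxes, which begin 104 and 94 bases before the start site. The whole window held 4, of which the other two begin 45 and 40 bases before it and overlap. A GC box was present in 42.6% of 34788 promoter windows. In CDKN2D the capitals mark a CCAAT box 234 bases and a GC box 156 bases before the start. In CDKN3 they mark a CCAAT box 208 bases before the start and TTCAAA, the CHR read on the other strand, 170 bases before it. The CHR is an element bound by the DREAM complex, a repressor of cell-cycle genes, and 13.3% of all windows held these letters. A CCAAT box was in 32.0% of windows. No window of the 5 genes held the E2F, CRE or AP-1 letters, which occurred in 2.8%, 1.6% and 4.2% of all windows. The matches describe letters and do not show that a factor binds there.

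Per kilobase of exon, CDKN1A was the most abundant of the 6 mRNAs, with a mean level of 719.9 normalised reads per kb over all libraries. CDKN3 followed with 401, CDKN1B with 292, CDKN2C with 188 and CDKN2D with 115 normalised reads per kb, whereas CDKN1C had 0.410. Lengths were the union of GENCODE v29 exons, which may not be those the authors counted. The ratio of the highest to the lowest group mean was 2.09 for CDKN1A, 1.90 for CDKN2D, 1.42 for CDKN2C, 1.40 for CDKN1B and 1.32 for CDKN3. The genes did not share an order of groups. The vector with Vps34-IN1 held the highest means of CDKN1A and CDKN1B, methionase in DMSO at 24 h that of CDKN2D, methionase with Vps34-IN1 that of CDKN3, and the vector in DMSO at 12 h that of CDKN2C. In bulk RNA, fewer cells that express a gene and less of its RNA per cell cannot be told apart.

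**Figure D1:**
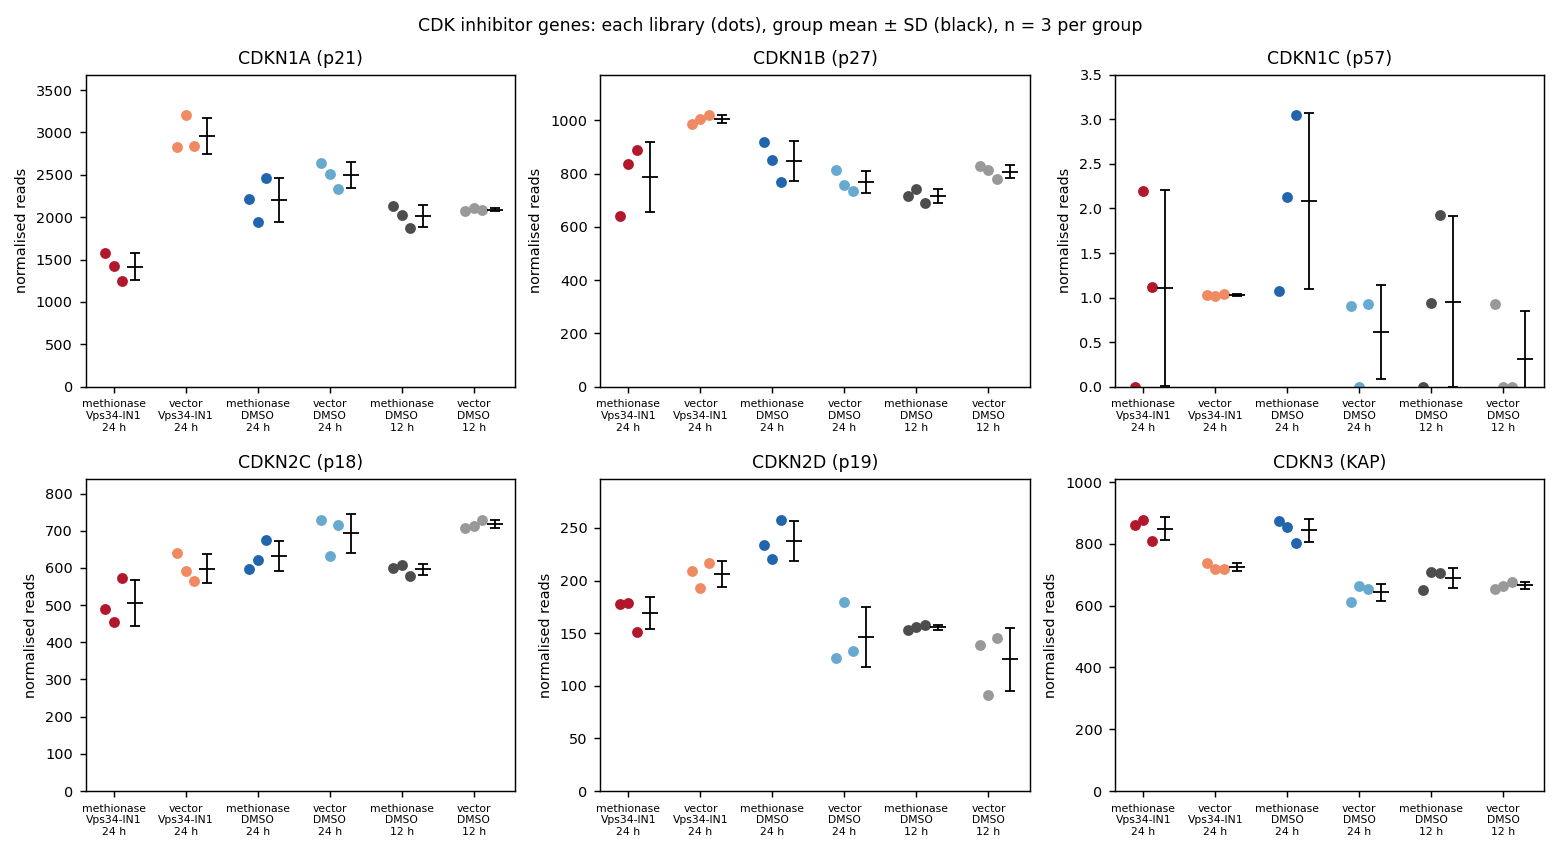
Normalised reads (y axis) of each gene in each library (dots) of the 6 groups (x axis), with the group mean ± SD in black (n = 3). CDKN1A is lowest with methionase and Vps34-IN1, at 1249.5 to 1575 normalised reads, and highest with the vector and Vps34-IN1, at 2822 to 3202, while CDKN1C stays at or below 3.05 in every library.

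CDKN1A encodes p21, the Cip/Kip inhibitor best known for arresting the cell cycle after DNA damage. In cells with both methionase and Vps34-IN1 its mRNA fell below every other library of the study. The 3 libraries with both had 1575, 1425 and 1249.5 normalised reads, against 2822, 3202 and 2845 with the vector and Vps34-IN1. Methionase in DMSO at 24 h had 2216, 1943 and 2459 normalised reads, against 2639.5, 2511 and 2335 with the vector in DMSO. The drug groups did not overlap, while those in DMSO did.

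Under Vps34-IN1, CDKN1A was lower with methionase than with the vector, by a log2 difference of -1.02 ± 0.08 (SE, limma adjusted p = 2.56e-09), or 0.479 of the vector mean. In DMSO at 24 h the same difference was -0.18 ± 0.08 (adjusted p = 0.0879), with a 95% interval of -0.34 to -0.01, and did not pass. It was called with array quality weights, with voom and without replicate 3 of methionase in DMSO. All p-values were adjusted over the 17755 tested genes, and a call needed one below 0.05. With Vps34-IN1 against DMSO, CDKN1A was lower in methionase cells by -0.61 ± 0.08 on the log2 scale (limma adjusted p = 4.19e-05). In vector cells it was higher with the drug, by 0.24 ± 0.08 (limma adjusted p = 0.0221). The change with the drug had opposite signs in the 2 vectors, and the difference between these changes was -0.85 ± 0.11 on the log2 scale (interaction, adjusted p = 1.35e-05). The higher level in vector cells was not called with quantile normalization, without the filter, with voom (a fit to the recovered reads), or without replicate 3 of the vector in DMSO or replicate 2 of the vector with Vps34-IN1. It ranged from 0.11 to 0.28 over 15 alternatives (adjusted p up to 0.334). With both treatments against neither at 24 h, CDKN1A was lower by a log2 difference of -0.78 ± 0.08 (limma adjusted p = 2.93e-08). These comparisons share libraries and are not independent of each other.

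At 12 h CDKN1A did not separate by vector. Methionase had 1878 to 2131 normalised reads, against 2078 to 2104 with the vector, and the log2 difference was -0.05 ± 0.08 (limma adjusted p = 0.771). Vector cells in DMSO had a higher mean at 24 h, 2495 ± 153 normalised reads, than at 12 h, 2089 ± 13.4 (SD, n = 3 each). These groups did not overlap, and the log2 difference of 0.25 ± 0.08 missed the threshold narrowly (limma adjusted p = 0.05003). It was called with quantile normalization, the stricter filter, array quality weights, a fit of only these groups, and voom. With methionase the difference between 24 h and 12 h was 0.12 ± 0.08 (adjusted p = 0.233).

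CDKN1B encodes p27, which holds CDK2 inactive in quiescent cells and is a known target of FOXO transcription factors. It was higher with Vps34-IN1 than with DMSO in vector cells, and this was not seen with methionase. Vps34-IN1 libraries of the vector had 987, 1005 and 1019 normalised reads, against 814, 757 and 735 in DMSO. With methionase, the drug libraries had 640.0, 837 and 889 normalised reads, against 919.7, 851 and 769 in DMSO. All 3 drug libraries of the vector lay above every other library of the study, and with methionase the drug and DMSO libraries overlapped.

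The log2 difference between Vps34-IN1 and DMSO was 0.35 ± 0.08 in vector cells (limma adjusted p = 0.00144) and -0.10 ± 0.08 in methionase cells (adjusted p = 0.5001, with a 95% interval of -0.27 to 0.07). The interaction was -0.45 ± 0.12 (adjusted p = 0.00660). Under the drug, methionase had less CDKN1B than the vector, with a log2 difference of -0.33 ± 0.08 (limma adjusted p = 0.00274). Without replicate 1 of methionase with the drug, the library at 640.0 normalised reads, the difference was -0.20, and with quantile normalization it was -0.21, with the call kept in both (limma adjusted p up to 0.0498). In DMSO at 24 h methionase averaged 846 ± 75.6 normalised reads and the vector 769 ± 40.9 (SD, n = 3 each), a difference of 0.12 ± 0.08 that did not pass (limma adjusted p = 0.247). Within methionase cells in DMSO the level was higher at 24 h than at 12 h, where it was 717 ± 26.6, by 0.21 ± 0.08 (limma adjusted p = 0.0421). That call was lost in 9 of 15 alternatives, including a leave-out of each 12 h methionase replicate and of replicates 1 and 2 at 24 h, with values from 0.14 to 0.28. At 12 h the vector averaged 808 ± 25.7, and methionase differed from it by -0.16 ± 0.08, which did not pass (limma adjusted p = 0.3345). In vector cells the difference between 24 h and 12 h was -0.07 ± 0.08 (limma adjusted p = 0.659). The methionase by time interaction, 0.28 ± 0.12, did not pass (limma adjusted p = 0.126).

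CDKN1C, the gene of p57, is imprinted and expressed mainly in the embryo and placenta. It had 0, 2 and 1 reads with methionase and Vps34-IN1 and 1, 1 and 1 with the vector and Vps34-IN1. Methionase in DMSO had 1, 2 and 3 reads at 24 h and 0, 1 and 2 at 12 h. The vector in DMSO had 1, 0 and 1 reads at 24 h and 1, 0 and 0 at 12 h. No library exceeded 3 reads, 5 libraries had none, and a difference between groups was not detectable at this depth.

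CDKN2C encodes p18, an INK4 inhibitor of CDK4 and CDK6. It was lowest in cells with both methionase and Vps34-IN1, and lower with the drug in either vector. Those with both had 488, 455 and 574 normalised reads, against 639, 591 and 564 with the vector and Vps34-IN1. In DMSO at 24 h, methionase had 597, 622 and 676 normalised reads, against 730.2, 633 and 716 with the vector. The libraries with both lay below all DMSO libraries of either vector and overlapped those of the vector with the drug.

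The log2 difference of CDKN2C between Vps34-IN1 and DMSO was -0.28 ± 0.07 with methionase (limma adjusted p = 0.0177) and -0.19 ± 0.07 with the vector (adjusted p = 0.0451). The 2 differences were not shown to differ from each other, with an interaction of -0.10 ± 0.10 and a 95% interval of -0.31 to 0.12 (limma adjusted p = 0.559). Both treatments against neither gave -0.40 ± 0.07 (limma adjusted p = 8.38e-05), and this call held under all 15 alternatives. The single-factor calls were less stable. The drug call was lost in 7 of 15 alternatives in vector cells, among them without replicate 1 or 3 in DMSO and without replicate 2 or 3 with the drug, and in 3 of 15 in methionase cells, among them without replicate 3 in DMSO or replicate 2 with the drug. Methionase against vector under Vps34-IN1 gave -0.21 ± 0.07 (limma adjusted p = 0.0235), which was lost in 6 of 15, including quantile normalization, with -0.12, and without replicate 1 of the vector or replicates 1 or 2 of methionase with the drug. At 12 h the methionase libraries, at 579 to 608 normalised reads, all lay below the vector libraries, at 709 to 730.2, and the difference of -0.24 ± 0.07 did not pass (limma adjusted p = 0.0872).

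CDKN2D encodes p19, the INK4 protein whose mRNA peaks in S phase in mouse cells. Its level was higher with either treatment alone than with neither, and the mean with both lay between. Methionase with Vps34-IN1 had 177, 178 and 151 normalised reads, against 209, 193 and 217 with the vector and Vps34-IN1. Methionase in DMSO at 24 h had 234, 220.1 and 258, against 127, 179 and 133 with the vector in DMSO. Each group treated with 1 agent lay above the vector in DMSO without overlap.

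Methionase was associated with a CDKN2D level higher by 0.51 ± 0.10 on the log2 scale in DMSO at 24 h (limma adjusted p = 0.000330), and Vps34-IN1 with one higher by 0.36 ± 0.10 in vector cells (adjusted p = 0.00689). In methionase cells the drug had the opposite sign, -0.36 ± 0.10 (limma adjusted p = 0.0299). That call was lost in 6 of 15 alternatives, among them without replicate 1 or 3 of methionase in DMSO or replicate 3 of methionase with the drug. The interaction was -0.72 ± 0.14 (limma adjusted p = 0.000900) and was called in all 21 alternatives. Under Vps34-IN1 the difference between methionase and vector was -0.21 ± 0.10 (limma adjusted p = 0.109), and for both treatments against neither it was 0.15 ± 0.10 (adjusted p = 0.234). Methionase cells in DMSO had more CDKN2D at 24 h than at 12 h, 237 ± 19.1 against 155 ± 2.24 normalised reads (SD, n = 3 each), with a log2 difference of 0.44 ± 0.10 (limma adjusted p = 0.00137). In vector cells the difference between these times was 0.15 ± 0.10 (limma adjusted p = 0.351). Whether the change over time differed between vectors did not pass the test, at 0.29 ± 0.14 (limma adjusted p = 0.213).

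CDKN3 encodes KAP, and its mRNA was higher with methionase at 24 h whether or not the drug was present. Methionase with Vps34-IN1 had 861, 879 and 808 normalised reads, against 739.6, 719 and 718 with the vector and Vps34-IN1. In DMSO at 24 h methionase had 874, 855 and 803, against 613, 663 and 655 with the vector. In both settings every methionase library lay above every vector library. At 12 h the groups overlapped, with 651 to 708 normalised reads with methionase and 655 to 676 with the vector.

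The log2 difference of CDKN3 between methionase and vector was 0.20 ± 0.06 under Vps34-IN1 (limma adjusted p = 0.00816), 0.35 ± 0.06 in DMSO at 24 h (adjusted p = 4.98e-05) and 0.04 ± 0.06 at 12 h (adjusted p = 0.751). The call under Vps34-IN1 was lost in a fit of only the groups compared (adjusted p = 0.0574), and that in DMSO at 24 h held under all 15 alternatives. The methionase difference was greater at 24 h than at 12 h by 0.31 ± 0.08 (methionase by time interaction, limma adjusted p = 0.0182). This last call was lost with voom, without replicate 1 of methionase at 12 h and without replicate 1 of the vector at 24 h. Methionase cells in DMSO had more CDKN3 at 24 h than at 12 h, with a difference of 0.27 ± 0.06 (limma adjusted p = 0.000995), whereas in vector cells it was -0.04 ± 0.06 (adjusted p = 0.691). Vps34-IN1 gave 0.01 ± 0.06 in methionase cells (limma adjusted p = 0.954). In vector cells it gave 0.15 ± 0.06 (adjusted p = 0.0399), a call lost in 10 of 15 alternatives, including each of the 6 that left out a replicate, with values down to 0.04. The interaction with the drug, -0.15 ± 0.08, did not pass (limma adjusted p = 0.226). Both treatments against neither gave 0.36 ± 0.06 (limma adjusted p = 2.31e-05).

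**Figure D2:**
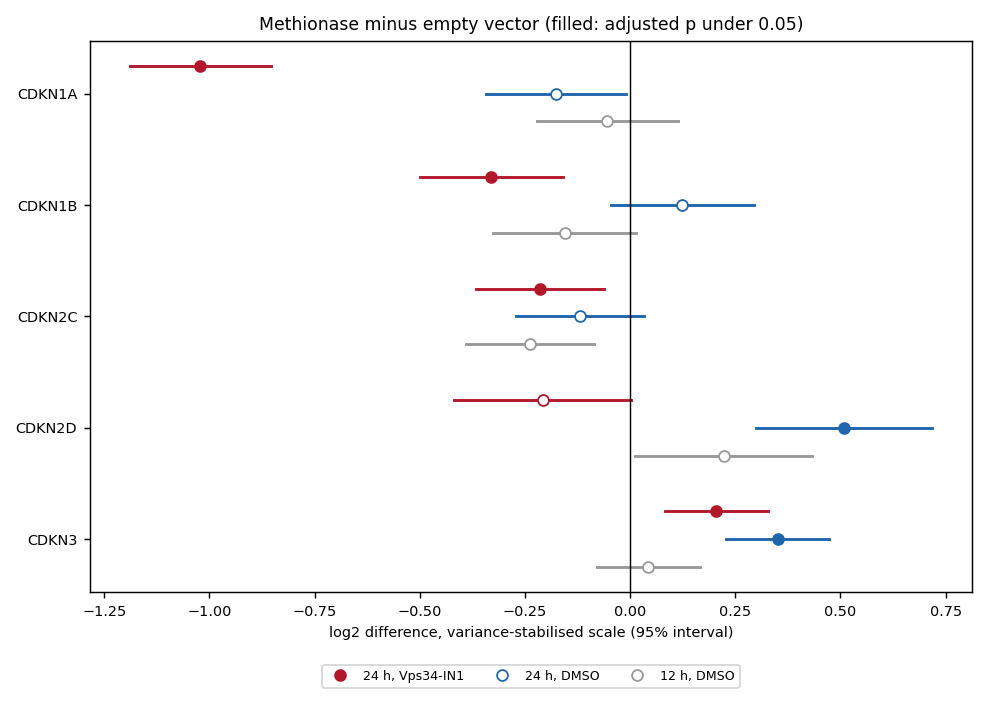
Log2 difference of methionase minus empty vector (x axis, points with 95% intervals) for the 5 tested genes (y axis) under Vps34-IN1 at 24 h, in DMSO at 24 h and in DMSO at 12 h, with filled points at adjusted p below 0.05. CDKN1A stands at -1.02 under Vps34-IN1, CDKN2D at 0.51 in DMSO at 24 h, and CDKN3 at 0.20 and 0.35 in the 2 settings at 24 h.

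Counted over the 5 tested genes, methionase against vector called 4 under Vps34-IN1 at 24 h, of which 1 was higher and 3 lower. Of all 17755 tested genes 39.5% were called there, either way. In DMSO at 24 h methionase against vector called 2, both higher, against 39.2% of all genes. Of the genes called, 3079 of 7016 were higher under the drug and 3210 of 6955 in DMSO. At 12 h limma called 0 of 5, where 2.17% of all genes were called. At an unadjusted p below 0.05 it gave 2, CDKN2C and CDKN2D, and voom called 0. The share of all genes at that unadjusted threshold was not counted, so the 2 cannot be set against the 2.17%.

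Vps34-IN1 against DMSO called 3 of 5 in methionase cells, all lower, where 7.93% of all genes were called. It called 5 of 5 in vector cells, 4 higher and 1 lower, against 40.1% of all genes. Of the genes called, 523 of 1408 were higher in methionase cells and 3595 of 7122 in vector cells. With quantile normalization the vector count was 2 higher and 1 lower, and with equal library medians 4 higher and 0 lower. Over all genes, 3298 of 6816 called and 4544 of 7375 called were higher in these settings. The interaction of methionase with the drug called 3 of 5, all lower, against 21.8% of all genes. Of those 3878 genes, 1761 were higher. With both treatments against neither, 1 gene was higher and 2 were lower, where 48.1% of all genes were called. Of those 8544 genes, 3962 were higher.

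For 24 h against 12 h limma called 3 of 5 in methionase cells, all higher, against 39.8% of all genes, and 0 of 5 in vector cells, against 11.5%. Of the 7058 and 2039 genes called, 3275 and 818 were higher. The vector count at an unadjusted p below 0.05 was 1, CDKN1A, with no share of all genes counted at that threshold, and voom called that 1. The methionase by time interaction called 1 of 5, where 11.7% of all genes were called. The 2 of 5 for methionase in DMSO at 24 h is near the share of all genes called there.

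**Figure D3:**
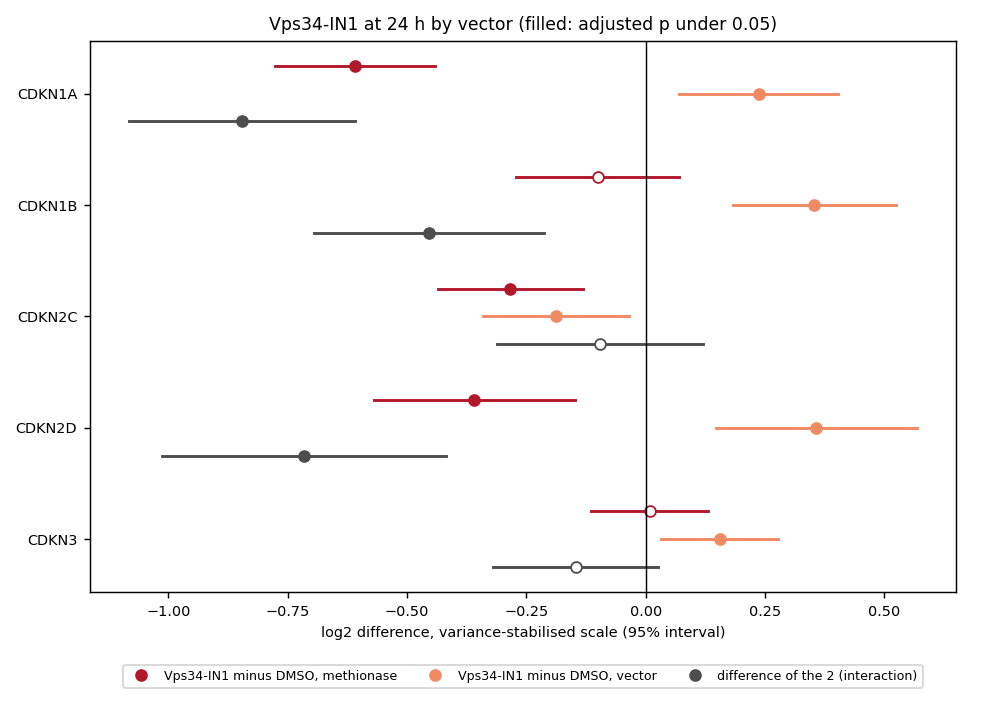
Log2 difference of Vps34-IN1 minus DMSO at 24 h (x axis, points with 95% intervals) for the 5 tested genes (y axis) in methionase cells, in vector cells, and the difference between them, with filled points at adjusted p below 0.05. CDKN1A and CDKN2D lie left of 0 with methionase, at -0.61 and -0.36, and right of 0 with the vector, at 0.24 and 0.36.

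Of a list of 7 other genes, CDK inhibitors and genes with related names, 6 were tested. Counts over this list are therefore not counts of CDK inhibitors alone. CDKN2B, which encodes the INK4 protein p15, averaged 241 ± 30.6 normalised reads with methionase and Vps34-IN1, 295 ± 41.6 with the vector and Vps34-IN1, 310.5 ± 12.0 with methionase in DMSO and 208 ± 10.1 with the vector in DMSO at 24 h (SD, n = 3 each). CDKN2B lies opposite the antisense gene CDKN2B-AS1, whose reads may not have been told apart from it. The interaction of CDKN2B was -0.67 ± 0.12 on the log2 scale (limma adjusted p = 0.000265). CDKN2A, the gene of p16 and ARF, had 3926 ± 255 normalised reads with Vps34-IN1 and 3189 ± 175 with DMSO in vector cells (SD, n = 3 each), a log2 difference of 0.29 ± 0.08 (limma adjusted p = 0.00403). In this list the drug called 5 genes higher and 0 lower in vector cells, and 0 higher and 1 lower in methionase cells, where 40.1% and 7.93% of all tested genes were called either way. With voom the vector count was 2 higher and 1 lower.

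Among the kinases that these proteins inhibit, CDK4 was lower with methionase than with the vector under Vps34-IN1, at 3400 ± 205 against 4245 ± 275 normalised reads (SD, n = 3 each), with a log2 difference of -0.31 ± 0.07 (limma adjusted p = 0.00122). CDK2 was lower by -0.19 ± 0.05 on that scale (limma adjusted p = 0.00723), and CDK6 gave -0.14 ± 0.08 (adjusted p = 0.158). CCND1, one of the D cyclins that activate CDK4 and CDK6, was lower with Vps34-IN1 in both vectors. Its log2 difference was -0.52 ± 0.09 with methionase (limma adjusted p = 0.00102) and -1.07 ± 0.09 with the vector (adjusted p = 4.72e-09). The D cyclin CCND3, at higher levels, was not called in either, at -0.09 ± 0.07 with methionase (limma adjusted p = 0.479) and 0.02 ± 0.07 with the vector (adjusted p = 0.849). CCNE2, a cyclin partner of CDK2, was lower with methionase than with the vector under the drug, by -0.49 ± 0.08 (limma adjusted p = 2.27e-05), and in DMSO at 24 h, by -0.39 ± 0.08 (adjusted p = 0.000271). Over the 20 CDKs, cyclins and CDK-activating genes, methionase under the drug called 0 higher and 7 lower. Counted either way, this is near the 39.5% of all tested genes called there. Of those 7016 genes, 3079 were higher, whereas none of this list was.

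The RB family, E2F and DREAM genes act downstream of the CDKs and include both activators and repressors of cell-cycle genes. Of 18 tested, methionase at 24 h called 0 higher and 11 lower under Vps34-IN1 (median log2 difference -0.27, against 0.01 over all tested genes) and 0 higher and 10 lower in DMSO (median -0.31, against 0.01). Of all tested genes, 39.5% were called either way under the drug and 39.2% in DMSO. Higher among these were 3079 of 7016 and 3210 of 6955. No member of this list was called higher under quantile normalization, equal library medians or voom in either setting, with 8 to 11 lower. E2F3, an activator of S-phase genes, had 913 ± 216 normalised reads with methionase and 1873 ± 73.2 with the vector under the drug (SD, n = 3 each). RBL1, the RB relative p107, had 629.9 ± 44.7 with methionase and 968 ± 58.5 with the vector in DMSO. Of 30 G1/S and replication genes, methionase at 24 h called 2 higher and 16 lower under the drug, against 39.5% of all tested genes called, and 1 higher and 20 lower in DMSO, against 39.2%. UNG, a uracil-DNA glycosylase, was lower under the drug by -0.69 ± 0.06 (limma adjusted p = 2.83e-08).

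CDKN3 mRNA is known to peak late in the cell cycle, and the G2/M genes were counted beside it. Of 30 tested, methionase called 8 higher and 4 lower under Vps34-IN1 and 9 higher and 7 lower in DMSO at 24 h, and with voom the DMSO split was 6 higher and 8 lower. The count under the drug is near the 39.5% of all tested genes called there, and 39.2% were called in DMSO. CKS2, a small CDK-binding protein, had 6203 ± 1010 normalised reads with methionase and 2327 ± 178 with the vector in DMSO (SD, n = 3 each), a log2 difference of 1.37 ± 0.08 (limma adjusted p = 3.41e-11). KIF11, a spindle motor, was lower in the same comparison by -0.50 ± 0.06 (limma adjusted p = 9.90e-07).

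Among 18 transcription factors and cofactors known to act on CDKN1A, Vps34-IN1 called 1 higher and 2 lower in methionase cells, and 10 higher and 5 lower in vector cells. Of all tested genes, 7.93% were called in methionase cells and 40.1% in vector cells. Higher among these were 523 of 1408 and 3595 of 7122. The interaction called 3 higher and 9 lower, against 21.8% of all tested genes, with a median of -0.27 against 0.002 over all tested genes, and 2 to 3 higher and 8 to 9 lower under the scaling alternatives. KLF6, an activator of CDKN1A, had an interaction of -2.53 ± 0.17 (limma adjusted p = 6.41e-10). It had 2302 ± 519 normalised reads with methionase and Vps34-IN1, 5659 ± 887 with the vector and Vps34-IN1, 2331 ± 161 with methionase in DMSO and 934 ± 122 with the vector in DMSO at 24 h (SD, n = 3 each). MYC, which represses CDKN1A, was higher with the drug in both vectors, by 0.73 ± 0.07 with methionase (limma adjusted p = 3.14e-07) and 1.51 ± 0.07 with the vector (adjusted p = 7.25e-14). The FOXO factors and their kinases, known upstream of CDKN1B, gave 3 higher and 3 lower of 10 with the drug in vector cells, where 40.1% of all tested genes were called. FOXO1 was among the lower, at -0.40 ± 0.08 (limma adjusted p = 0.000429). The FOXO genes did not share a direction. In vector cells FOXO3 had 1707 ± 67.2 normalised reads with the drug and 1448 ± 165 in DMSO (SD, n = 3 each). FOXO4 had 818 ± 74.6 and 809 ± 24.6, and FOXO6 33.6 ± 13.9 and 56.1 ± 9.43.

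The ubiquitin ligase subunits that degrade p21 and p27 proteins were also counted. Of 14, Vps34-IN1 called 1 higher and 1 lower in methionase cells, where 7.93% of all tested genes were called. In vector cells it called 7 higher and 2 lower, against 40.1% of all tested genes, and with voom 2 higher and 3 lower. The interaction of methionase with the drug called 1 higher and 3 lower of the 14, against 21.8% of all tested genes. DTL, which directs p21 to degradation in S phase, had an interaction of -0.49 ± 0.08 (limma adjusted p = 9.85e-05), the same sign as CDKN1A. CKS1B, the cofactor of SKP2 in the degradation of p27, had one of -0.55 ± 0.13 (limma adjusted p = 0.00257). SKP2 itself did not pass in any comparison of methionase with vector or of drug with DMSO, with 2276 ± 163 and 2508 ± 113 normalised reads in methionase and vector cells under the drug (SD, n = 3 each).

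**Figure D4:**
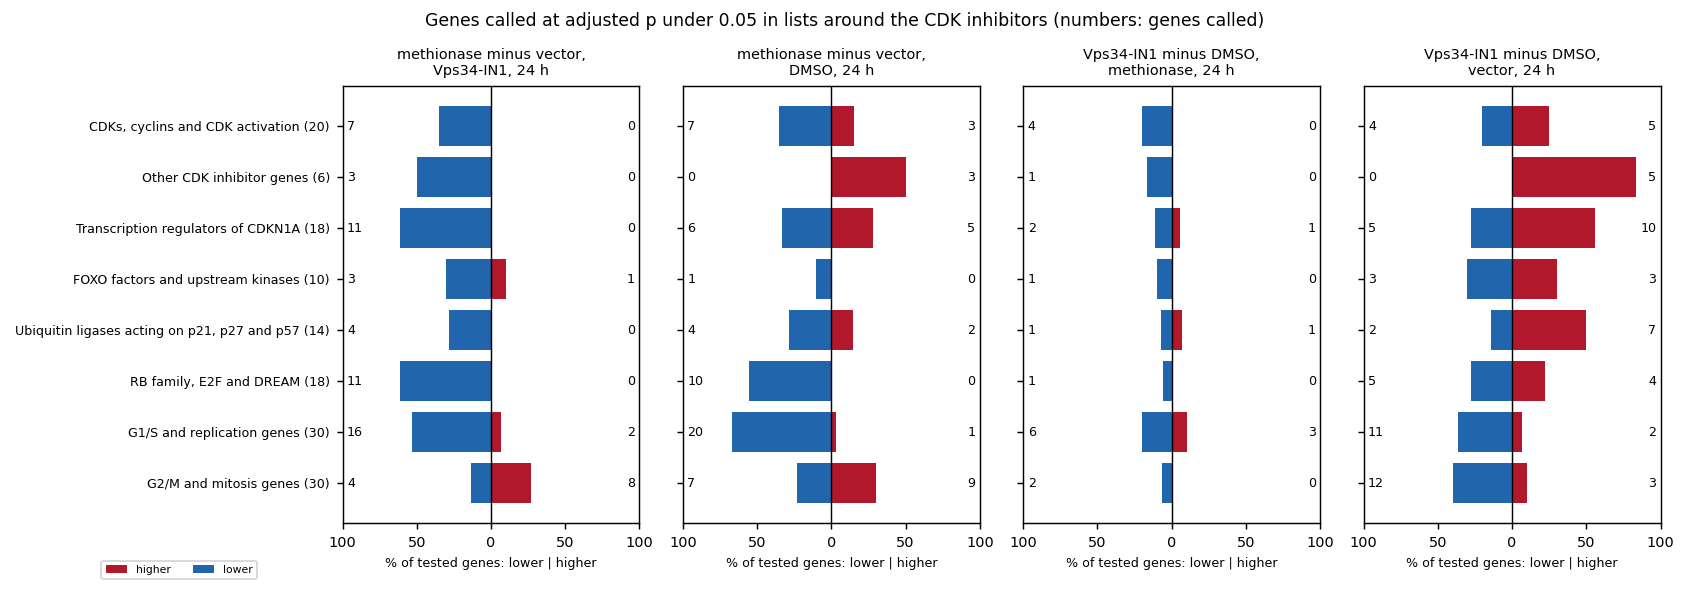
Share of the tested genes of each list (rows, number tested in brackets) called higher (red, to the right) or lower (blue, to the left) at adjusted p below 0.05, in percent on the x axis, with the number of genes called at the edges, for 4 comparisons at 24 h. Of the RB, E2F and DREAM genes, 11 and 10 of 18 are called lower with methionase under the drug and in DMSO, and none is called higher there.

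Across the 18 libraries the members did not move as one. The highest correlations between them, given as a description over libraries that share group differences, were 0.64 between CDKN2D and CDKN3 and -0.68 between CDKN2C and CDKN3 (Pearson r of log2 values). CDKN1A and CDKN1B had an r of 0.41. Symbols of the LOC, LINC, MIR, -AS, -DT and clone types were left out of a ranking of all tested genes by the same measure. The 3 remaining genes most like each member were MAPKAPK2, SPRYD3 and TMEM245 for CDKN1A, with r of 0.92, 0.92 and 0.91. They were CHEK1, MCL1 and CANX for CDKN1B, with 0.93, 0.92 and 0.92. For CDKN2C they were CYBRD1, GINS3 and SPATA2, with 0.90, 0.88 and 0.88. For CDKN2D they were C1QTNF12, EEF1AKMT3 and TNFRSF12A, with 0.88, 0.85 and 0.84. CDKN3 had the closest matches, GFOD1, SNHG3 and BRD2, each with an r of 0.96.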

How the data were processed

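The submitters' processing notes name the hg38 build and the tools STAR 2.7.10b, limma, DESeq2 and featureCounts, and give no role for any of them. The library kit marks strand, per the labels' protocols. The annotation and strand setting are not given in the sources used here. The authors deposited variance-stabilised log2 values, the lowest of them 5.45, for 37096 named genes and 1 line without a name, which took at most 0.0022% of a library's reads. Undoing the transformation gave whole reads for 100% of values (within 0.01). Normalised reads are these reads divided by size factors, which ranged from 0.892 to 1.10. Intervals cover the spread between libraries.

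The deposited log2 values of 17755 genes with a mean at least 0.5 above the lowest value were fitted in R 4.3.3 by limma 3.58.1 (a mean for each group, a variance trend and 12 residual degrees of freedom). A call needed an adjusted p below 0.05 (Benjamini-Hochberg over all tested genes) in each of 10 comparisons, uncorrected over comparisons. Log2 differences are on the deposited scale, on which low genes appear to change less than they do. The procedure was tested on simulated data. Libraries of a group were compared for copies, and the lowest chi-square per gene was 2.52, so none was merged.

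The members and the gene lists were chosen with earlier results of these data known. All members were named. From each list and comparison at most the 2 called genes of lowest adjusted p per direction were named, with CDK2, CDK4, CDK6, CCND1, CCND3, CCNE1, CCNE2, SKP2 and MYC followed throughout, and the 3 genes most correlated with each member. FOXO3, FOXO4 and FOXO6 were given beside FOXO1. The ranking by correlation left out symbols of the LOC, LINC, MIR, -AS, -DT and clone types. A few followed genes and 1 list are not reported here. Of the named genes, 36162 matched the RefSeq gene table of GRCh38.p14. Python 3.11.15 was used for the remaining steps.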

Additional observations from a re-analysis of the deposited data

Results flagged for a closer look

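For 3 genes the change with Vps34-IN1 differed between methionase and vector cells at 24 h by a test of the difference itself. The interaction was -0.85 for CDKN1A, -0.72 for CDKN2D and -0.45 for CDKN1B on the log2 scale (limma adjusted p = 1.35e-05, 0.000900 and 0.00660). Low genes such as CDKN2D appear to change less on this scale, so these sizes do not rank the genes. The ratio of the methionase to the vector mean was 0.479 under the drug and 0.884 in DMSO for CDKN1A. For CDKN2D it was 0.819 and 1.62. For CDKN1A and CDKN2D the change with the drug was negative with methionase and positive with the vector, both called as reported. The CDKN1A call with the vector was lost in 5 of 15 alternatives and the CDKN2D call with methionase in 6 of 15, while the sign stayed the same. For CDKN1B it was called with the vector alone. The difference between methionase and vector in CDKN3 differed between 24 h and 12 h, by 0.31 on the log2 scale (limma adjusted p = 0.0182), a call lost in 3 of 21 alternatives.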

How the results depend on the processing

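Of 50 results of single members, 24 were called, and 15 of these were called under every alternative. Of the 26 not called, 21 stayed so. No call changed direction. The alternatives were quantile normalization, equal library medians, no filter, a stricter filter at 1 that left 14322 genes, no variance trend, array quality weights, only the groups compared, the replicate block, voom on the recovered counts and each replicate left out.

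The number of members called for Vps34-IN1 in vector cells was 5, and was 3 with quantile normalization, 2 without the filter, 3 with voom and 2 to 4 with a replicate left out. Calls over all genes were 7122, and 6816, 6426, 7481 and 5963 to 6483 in these settings. In methionase cells the number of members was 3, and 1 with only the groups compared, and 1 to 3 with a replicate left out, where the 1 came without replicate 3 of methionase in DMSO. Methionase under Vps34-IN1 gave 4, and 2 with only the groups compared, where 7016 and 5531 of all genes were called. At 12 h it gave 0, and 1 with array quality weights or with only the groups compared. For 24 h against 12 h in vector cells the count was 0, and 1 with quantile normalization, the stricter filter, array quality weights, only the groups compared or voom. Calls over all genes were 2039, and 1677, 2109, 5186, 3507 and 2144 in these settings. The methionase by time interaction gave 1, and 2 with only the groups compared, 0 with voom and 0 to 1 with a replicate left out. Calls over all genes were 2071, and 2735 with only the groups compared, 2964 with voom and 1276 to 2413 with a replicate left out. Those for the remaining settings are given below. In each case the cause was not tested.

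No pairing of samples by replicate number was seen across the groups, though with 3 libraries per group this check cannot exclude one. In 0 of 15 pairs of groups did every same-numbered pair correlate above 0.1 (r from -0.308 to 0.352). With the replicate block, CDKN3 for Vps34-IN1 in vector cells gave 0.16 on the log2 scale (limma adjusted p = 0.0502) and CDKN1B for 24 h against 12 h in methionase cells 0.21 (adjusted p = 0.0506), both no longer called, and no other member's call changed.

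Calls over all genes also moved. At 12 h there were 385, and 178 without the filter, 180 with quantile normalization, 247 without the variance trend, 1561 with only the groups compared, 2135 with array quality weights and 18 to 238 with a replicate left out. For 24 h against 12 h in vector cells there were 2039, and 1290, 3507 and 5186 without the filter, with only the groups compared and with array quality weights, and 798 to 1696 with a replicate left out. Vps34-IN1 in methionase cells gave 1408, and 296 with only the groups compared and 625 with array quality weights, and 860 to 1526 with a replicate left out. The methionase by time interaction gave 2071, and 3617 with array quality weights and 1276 to 2413 with a replicate left out. With voom, which scales by total reads, the median of all genes for Vps34-IN1 in vector cells was -0.13, against 0.002 as reported.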
